A study of Mus musculus with 11 samples.

Results

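The sites described here are 1977 H3K4me3 peaks of quiescent satellite cells (QSCs) from young mice that carried no H3K27me3 while the cells were quiescent and carried both marks once the cells were activated. They were chosen by overlap of peak lists: a peak in the H3K4me3 list of young QSCs that shared no base with an H3K27me3 peak of young QSCs and at least 1 bp each with an H3K4me3 peak and an H3K27me3 peak of young activated satellite cells (ASCs). They were 1977 of 24701 H3K4me3 peaks in all, or 8.0%, and are called gained sites below. Of the 21255 peaks free of H3K27me3, the rule picked 9.30% (Wilson 95% interval 8.92% to 9.70%; background of 9.3% by definition).

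H3K4me3 is laid down at the promoters of genes that are active or open to activation, and H3K27me3, the product of the Polycomb repressive complex 2, marks genes that are held silent. A site with both is called bivalent, a state best known from the promoters of developmental regulators in stem cells. H3K36me3 is deposited by an enzyme that travels with elongating RNA polymerase II, so it lies over the bodies of transcribed genes rather than over their starts. Satellite cells are the stem cells of skeletal muscle, which rest under the basal lamina of the myofiber and enter the cell cycle after injury.

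All cells were VCAM+/CD31-/CD45-/Sca1- cells sorted from the hindlimb muscles of healthy male C57BL/6 mice. Young mice were 2 to 3 months old and old mice 22 to 24 months old. According to the sample descriptions, the ASCs were young QSCs kept on an ECM-coated surface in F10 medium with horse serum for 3 days, whereas the paper speaks of activation in injured muscle, so activation and culture cannot be told apart. Sorted cells were crosslinked and frozen until enough had been pooled, and each combination of cell state and mark was sequenced as 1 library, which gave 8 peak lists and no replicate. The libraries were H3K4me3, H3K27me3 and H3K36me3 of young QSCs, the same marks of young ASCs, and H3K4me3 and H3K27me3 of old QSCs. The samples held no H3K36me3 library of old QSCs, so that mark was not analysed there. The lists held between 11658 peaks (H3K27me3, young QSCs) and 42880 peaks (H3K36me3, young ASCs) and covered 16.9 to 70.0 Mb. The H3K27me3 list of ASCs held 38307 peaks over 48.9 Mb, that of old QSCs 17635 peaks over 16.9 Mb, and that of young QSCs its 11658 peaks over 21.4 Mb. The read depth behind the lists is unknown, and its part in the gains was not tested.

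Sites of 2 other kinds serve for comparison throughout. The 14360 H3K4me3-alone sites were free of H3K27me3 in young QSCs, kept H3K4me3 in ASCs and overlapped no H3K27me3 there. The 2937 stable bivalent sites carried both marks in both young states. Gained sites were 12.1% of the 16337 H3K27me3-free sites that kept H3K4me3 in ASCs, and 40.2% (38.9% to 41.6%) of the 4914 sites of young QSCs that overlapped both marks in ASCs. H3K27me3 of ASCs overlapped 3180, or 15.0%, of the 21255 H3K27me3-free sites, and 62.2% of these 3180 also kept H3K4me3 and so were gained sites. Peaks were set against each other, and no gene is named, because gene positions in the build of the lists (mm9) were not given. Every interval covers counting error over sites only, and sites of 1 library are not replicates of a cell state.

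In young QSCs the gained sites were of ordinary width and of intermediate strength. Their H3K4me3 peaks had a median width of 1463 bp (quartiles 1072 and 1970 bp), close to the 1579 bp of the H3K4me3-alone sites and the 1476 bp of the stable bivalent sites. They differed more in score, which in these lists is 10 times the negative log10 of the p-value that the peak caller MACS assigns, starts at 50 and is tied at 3100 for many peaks. The median score of gained sites was 777 (quartiles 235 and 2000), below the 1453 of H3K4me3-alone sites and above the 649 of stable bivalent sites. Strong sites were among them all the same, since 306 gained sites had a score of at least 3000 and 119 were wider than 3 kb. Among H3K27me3-free sites that kept H3K4me3, the gained share was highest at scores from 200 to under 1000, at 19.6% (18.3% to 21.0%), and lowest at scores of 3000 or more, at 8.78% (7.88% to 9.76%). By width it ran from 13.9% under 1000 bp to 10.7% at 2000 bp or more. These values come from the lists that chose the sites and are a description.

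The H3K27me3 peaks that appeared on these sites in ASCs were narrower than those of stable bivalent sites. The widest overlapping H3K27me3 peak of a gained site had a median width of 1035 bp (quartiles 773 and 1469 bp) and a median score of 199 (97.9 and 462). At stable bivalent sites the H3K27me3 peak of ASCs was 3281 bp wide, with a median score of 2732. The new mark lay on the H3K4me3 peak, as the rule requires. It covered a median of 72.2% of the site, lay wholly inside it at 999 sites (50.5%), covered it from end to end at 312 (15.8%) and reached past an edge in part at the remaining 666 (33.7%). Its centre was a median of 183 bp (quartiles 69 and 417 bp) from the centre of the site, and 83.2% of sites had their centre covered. At stable bivalent sites the order was the other way around, with 68.1% covered from end to end and 8.38% holding the H3K27me3 peak inside. Nearly all gained sites had their own H3K27me3 peak, as 2074 distinct peaks lay over the 1977 sites and 8 of them reached more than 1 site. Within the site, the H3K4me3 and H3K27me3 peaks of ASCs shared bases at 1947 sites (98.5%). The rule put both on the site, of which they covered medians of 87.8% and 72.2%, so this sharing was largely set by the rule. Taken over all gained sites, H3K27me3 of ASCs covered 2.01 of 3.26 Mb.

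**Figure D1:**
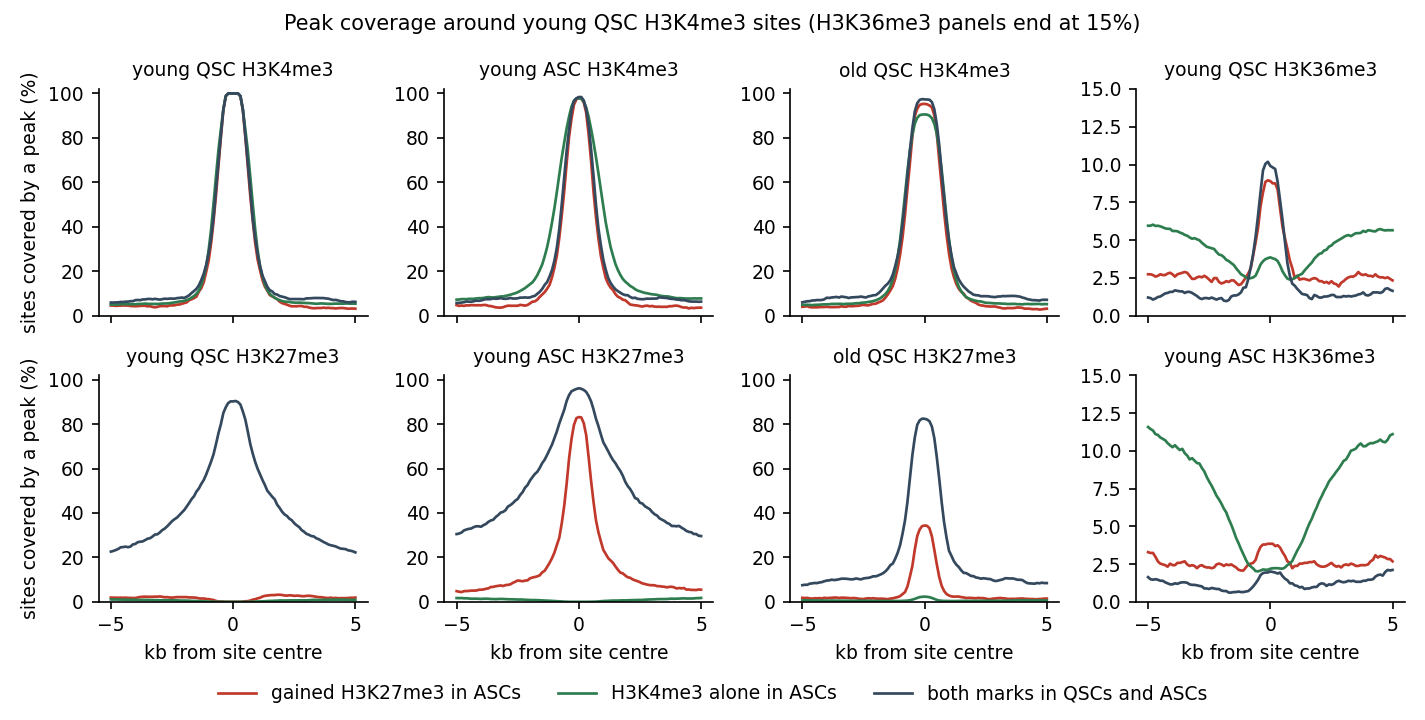
Share of sites (%) covered by a peak at each distance (kb, from −5 to 5) from the centre of the young QSC H3K4me3 peak, for each of the 8 lists and for gained, H3K4me3-alone and stable bivalent sites; the H3K36me3 panels end at 15%. At gained sites H3K27me3 of ASCs fell from 83.2% at the centre to 22.8% at 1 kb, and that of old QSCs from 34.3% to 2.71%, while at stable bivalent sites they fell from 96.2% to 72.8% and from 82.4% to 24.3%.

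The profile of peak coverage around the site centre shows how far the new mark reached. At gained sites, coverage by H3K27me3 of ASCs was 83.2% at the centre, 53.8% at 500 bp, 22.8% at 1 kb and 5.13% at 5 kb. At stable bivalent sites it was 96.2% at the centre and still 30.1% at 5 kb. Few sites rested on a short overlap, but weak H3K27me3 peaks were common. The smallest overlap with H3K27me3 of ASCs was 11 bp, and 10 gained sites had under 100 bp of it. In a list whose scores start at 50, 138 gained sites rested on a peak with a score under 60 and 510 on one under 100. Just outside, 21 H3K4me3-alone sites had an H3K27me3 peak of ASCs less than 100 bp away, and 23 stable bivalent sites had under 100 bp of H3K27me3 in young QSCs. When each mark was limited to the same number of top-scoring peaks in every state, 1056 gained sites remained by the same rule. They were 5.02% of the H3K27me3-free sites, against 9.30% with all peaks, so membership depends on the threshold.

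A minority of the gained sites lay beside H3K27me3 that young QSCs already had. The median distance from a gained site to the nearest H3K27me3 peak of young QSCs was 114 kb (quartiles 26.1 and 361 kb), against 119 kb (40.9 and 301 kb) for H3K4me3-alone sites. The lists parted at short range. Within 1 kb of such a peak lay 119 gained sites, or 6.02% (5.05% to 7.16%), against 1.01% (0.859% to 1.19%) of H3K4me3-alone sites. Within 10 kb the shares were 16.2% (14.6% to 17.9%) and 8.78% (8.33% to 9.26%), and within 100 kb they were 47.5% and 45.3%. With peaks of a score of at least 100 alone, 10.1% of gained sites lay within 10 kb. The same H3K27me3 peak of ASCs reached both a gained site and an H3K27me3 peak of young QSCs at 51 sites (2.58%), and 17 gained sites had such a young QSC peak less than 100 bp away. At stable bivalent sites, where the rule requires the mark in both states, 99.6% shared the peak. Among the 57 gained sites whose ASC H3K27me3 peak had a score of 2000 or more, 33.3% (22.5% to 46.3%) lay within 5 kb of H3K27me3 in young QSCs, against 8.24% (6.15% to 10.9%) of the 510 with a score under 100. Between these bands the share was 12.7%, 11.5% and 13.8% at scores of 100 to under 500, 500 to under 1000 and 1000 to under 2000, so only the top band stood higher. Of the 19 sites of that band within 5 kb, 13 were among the 17 sites tied at a score of 3100. The median width of the ASC H3K27me3 peak was 3462 bp in the top band and 682 bp in the lowest.

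**Figure D2:**
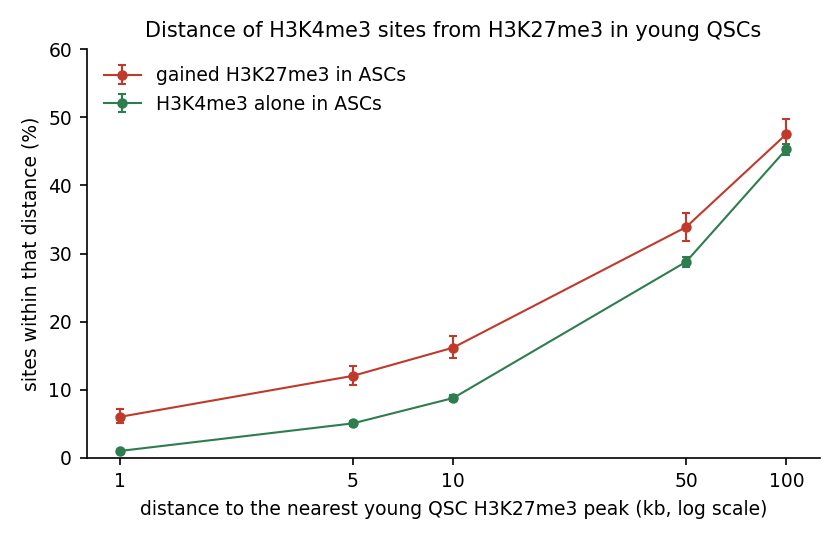
Share of sites (%) within 1, 5, 10, 50 and 100 kb (log axis) of the nearest H3K27me3 peak of young QSCs, for gained and H3K4me3-alone sites, with Wilson 95% intervals. Gained sites stand higher at 10 kb (16.2% against 8.78%) and come close to the H3K4me3-alone sites at 100 kb (47.5% against 45.3%).

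The top ASC H3K27me3 score of 3100 was shared by 17 gained sites, of which 13 lay within 5 kb of H3K27me3 of young QSCs, 11 carried H3K27me3 in old QSCs and 16 kept H3K4me3 there. The 5 of them with the widest ASC H3K27me3 peaks are described here. The sites chr9:62979772-62981942 and chr9:62983156-62983875 (mm9) lay under a single H3K27me3 peak of ASCs that was 20531 bp wide. The first was 2171 bp wide with an H3K4me3 score of 1926 in young QSCs and lay 2.04 kb from H3K27me3 of young QSCs. The second was 720 bp wide with a score of 77.1 and lay 0.11 kb from it. The site chr8:14089605-14090992 had an ASC H3K27me3 peak of 8084 bp and lay 0.708 kb from H3K27me3 of young QSCs, and chr17:45685682-45687082 had one of 6369 bp and lay 0.039 kb from it. Only chr4:47220168-47223295 was remote, at 195 kb, with an ASC H3K27me3 peak of 11778 bp that covered the whole site. There H3K4me3 fell from 3128 bp in young QSCs to 1449 bp in ASCs and measured 2630 bp in old QSCs. These 5 sites kept H3K4me3 in old QSCs and had no H3K27me3 peak there, unlike 11 of the 17 sites of the same score.

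Called H3K4me3 peaks were narrower in ASCs than in QSCs at most gained sites and wider at most sites that stayed free of H3K27me3. Over the 1889 gained sites called as a single peak in both lists, H3K4me3 peaks spanned a median of 1449 bp before and 1259 bp after activation, a median change of −0.15 on the log2 scale (quartiles −0.38 and 0.01). The ASC peak was the narrower one at 1375 of them, or 72.8% (70.7% to 74.7%). At H3K4me3-alone sites the median width rose from 1587 to 1909 bp and 27.5% were narrower. The stable bivalent sites were nearer to the gained ones, with 1467 bp in QSCs, 1340 bp in ASCs and 65.8% narrower. The sites of all kinds were measured in the same pair of lists, from 1 library per state. Called width can vary with read depth, which is unknown. A change of the mark therefore cannot be told apart from a difference between the libraries. The comparison was split by starting width and not by H3K4me3 score, whose median was 777 at gained and 1453 at H3K4me3-alone sites.

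The split was present at every starting width. Among gained sites under 1000 bp wide in QSCs, 62.0% (57.0% to 66.8%) were narrower in ASCs, and from 1000 bp upwards the share was 74.1% to 77.4%. The H3K4me3-alone sites ran from 43.1% (41.0% to 45.3%) under 1000 bp to 20.3% at 1500 to under 2000 bp and 22.5% at 2000 bp or more. Stable bivalent sites stood at 49.4% (45.1% to 53.7%) under 1000 bp and 62.6% (59.4% to 65.7%) at 1000 to under 1500 bp, below the gained sites. At 1500 to under 2000 bp they stood at 74.7% and at 2000 bp or more at 74.8%. The median ratio of ASC to QSC width was 0.894 to 0.921 in the 4 width bands of the gained sites and 1.07 to 1.20 in those of the H3K4me3-alone sites. In old QSCs the median width did not fall, as 1813 gained sites had 1487 bp at the young age and 1525 bp at the old one. Of these, 37.3% (35.1% to 39.6%) were narrower in old QSCs. That share was somewhat above the 33.7% (32.8% to 34.5%) of H3K4me3-alone sites and the 31.5% (29.7% to 33.3%) of stable bivalent sites. Splitting of the peak was rare, as 41 gained sites (2.07%) overlapped more than 1 H3K4me3 peak of ASCs. The ASC H3K4me3 list was used by the rule for overlap, so these widths describe the sites and were given no test.

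**Figure D3:**
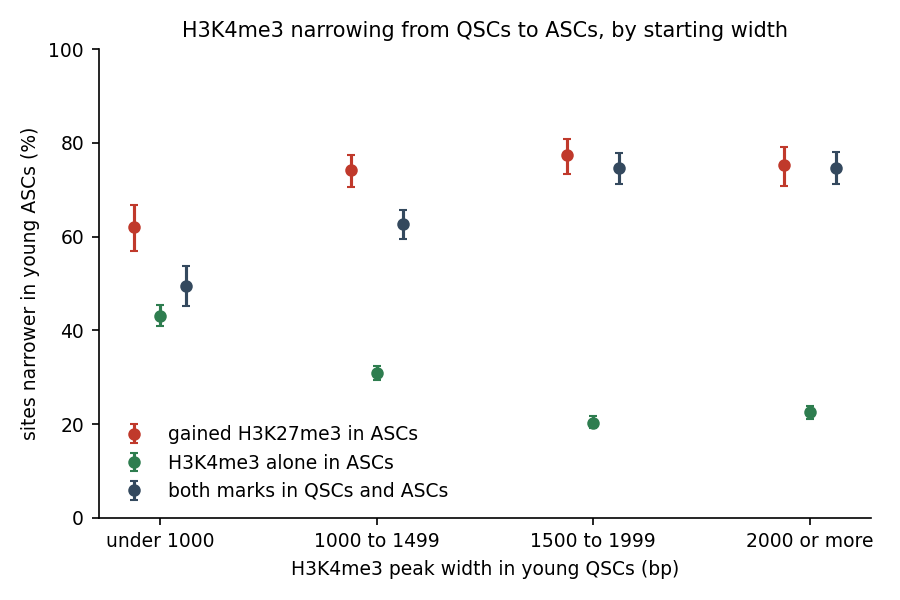
Share of sites (%) whose H3K4me3 peak was narrower in young ASCs than in young QSCs, by peak width in QSCs (bp), for gained, H3K4me3-alone and stable bivalent sites called once in each list; bars are Wilson 95% intervals. Gained sites lie at 62.0% to 77.4% in every band and H3K4me3-alone sites at 20.3% to 43.1%.

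Old QSCs, whose libraries the rule did not use, carried H3K27me3 at many of these sites. An H3K27me3 peak of old QSCs overlapped 774 gained sites, or 39.2% (37.0% to 41.3%), where the background over all 21255 H3K27me3-free sites was 11.0%. The share was 2.76% (2.50% to 3.04%) at H3K4me3-alone sites, a difference of 36.4 percentage points (Newcombe 95% interval 34.2 to 38.6), and 88.0% at stable bivalent sites. The share was higher, at 59.4% (56.6% to 62.2%), at the 1203 H3K27me3-free sites with H3K27me3 but no H3K4me3 in ASCs. It was thus not particular to the gained sites. Put the other way, gained sites made up 33.1% (31.2% to 35.1%) of the 2337 sites that lacked H3K27me3 in young QSCs and had it in old QSCs. Another 715 of the 2337 were among those 1203 sites. With peaks of a score of at least 100 alone, the share at gained sites was 24.6%, and its difference from the H3K4me3-alone sites was 23.7 points (21.7 to 25.9).

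The H3K27me3 peaks of old QSCs at gained sites were close in width and score to those of their whole list. Their median width was 886 bp (quartiles 722 and 1060 bp) and their median score 92.2 (65.5 and 138), against 838 bp and 89.6 over the whole list. At H3K4me3-alone sites the peaks measured 749 bp with a score of 70.5, and at stable bivalent sites 1308 bp with a score of 276. Old QSC and ASC H3K27me3 shared bases within the site at 767 of 774 sites, and a median of 100% of the bases marked in old QSCs were also marked in ASCs. Both peaks had to overlap the same site, and ASC H3K27me3 covered a median of 87.2% of these 774 sites. The sharing was thus largely set by the selection and does not show a common position. Summed over all gained sites, H3K27me3 of old QSCs covered 0.670 Mb, against 2.01 Mb for ASCs. Coverage was 34.3% at the site centre, 16.5% at 500 bp and 2.71% at 1 kb.

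H3K4me3 was retained in old QSCs at 1891 gained sites, or 95.7% (94.7% to 96.5%), where the background was 78.6%. That background includes sites without H3K4me3 in ASCs, which the rule excludes. Old QSCs had H3K4me3 at 50.3% of such sites with H3K27me3 in ASCs and at 29.6% of those with neither mark there. The gap to the background is therefore partly built in. At H3K4me3-alone sites the share was 91.3%, a difference of 4.35 points (3.27 to 5.30), and at stable bivalent sites it was 97.7%. With peaks of a score of at least 100 alone, the difference from H3K4me3-alone sites was 1.39 points (0.30 to 2.28). Both marks were thus present in old QSCs at 738 gained sites, or 37.3% (35.2% to 39.5%), where the background was 8.21%. The share was 2.66% at H3K4me3-alone sites. At the 1203 H3K27me3-free sites with H3K27me3 but no H3K4me3 in ASCs it was 35.4% (32.8% to 38.2%). Carrying both marks in old QSCs was thus not particular to the gained sites. With peaks of a score of at least 100 this share of gained sites was 23.3%. A further 1153 gained sites (58.3%) had H3K4me3 alone in old QSCs, 36 had H3K27me3 alone and 50 had neither. The sites without H3K4me3 in old QSCs were mostly weak ones. Of the gained sites with a young QSC score under 200, 81.5% had it in old QSCs, against 61.5% of H3K4me3-alone sites. From 200 to under 1000 the shares were 98.8% and 97.7%. All 864 gained sites with a score of 1000 or more had it, as did 99.98% or more of H3K4me3-alone sites in those bands.

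**Figure D4:**
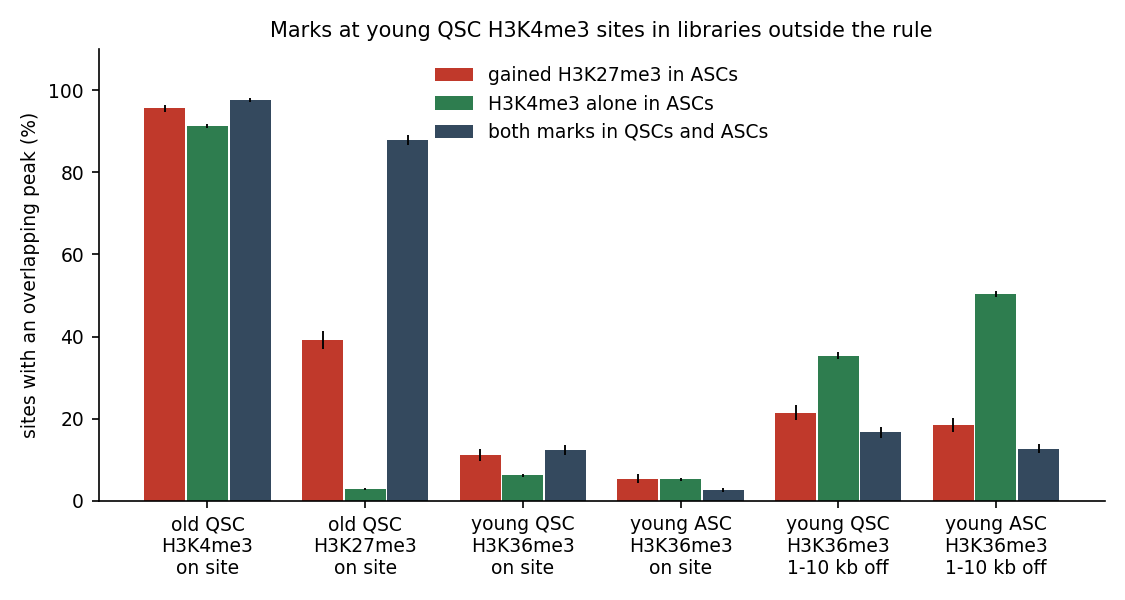
Share (%) of gained, H3K4me3-alone and stable bivalent sites with a peak in the libraries outside the rule, on the site for old QSC H3K4me3, old QSC H3K27me3 and H3K36me3, and 1 to 10 kb beyond either edge for H3K36me3; bars are Wilson 95% intervals. Old QSC H3K27me3 stands at 39.2%, 2.76% and 88.0%, and ASC H3K36me3 beside the site at 18.5%, 50.3% and 12.7%.

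Which gained sites carried H3K27me3 in old QSCs varied with the strength of both marks in young cells. The share was 57.7% (52.7% to 62.5%) at H3K4me3 peaks under 1000 bp wide and 22.2% (18.7% to 26.3%) at those of 2000 bp or more. By H3K4me3 score it was 57.0% (52.2% to 61.7%) under 200 and 19.3% (15.3% to 24.1%) at 3000 or more. It rose with the score of the ASC H3K27me3 peak, from 25.1% (21.5% to 29.0%) under 100 to 55.0% (50.5% to 59.5%) at 500 or more. Between scores of 500 and the top it was flat, with 55.2%, 55.8% and 52.6% at 500 to under 1000, 1000 to under 2000 and 2000 or more.

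The relation to each score was seen at either level of the other score. With an H3K4me3 score under 1000, old QSCs had H3K27me3 at 37.9% (34.0% to 42.0%) of gained sites whose ASC H3K27me3 score was under 200 and at 64.8% (60.7% to 68.7%) of those with 200 or more. With an H3K4me3 score of 1000 or more the shares were 13.8% (10.9% to 17.5%) and 33.3% (29.1% to 37.9%). The 774 sites with old QSC H3K27me3 had a median H3K4me3 width of 1235 bp and score of 372 in young QSCs, against 1618 bp and 1183 for the other 1203. At H3K4me3-alone sites the share stayed at or under 4.02% in every band of width and score. Stable bivalent sites with a weak ASC H3K27me3 peak, under a score of 100, carried the mark in old QSCs at 52.1% (38.3% to 65.5%) of 48 sites, against 25.1% of gained sites of like score.

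**Figure D5:**
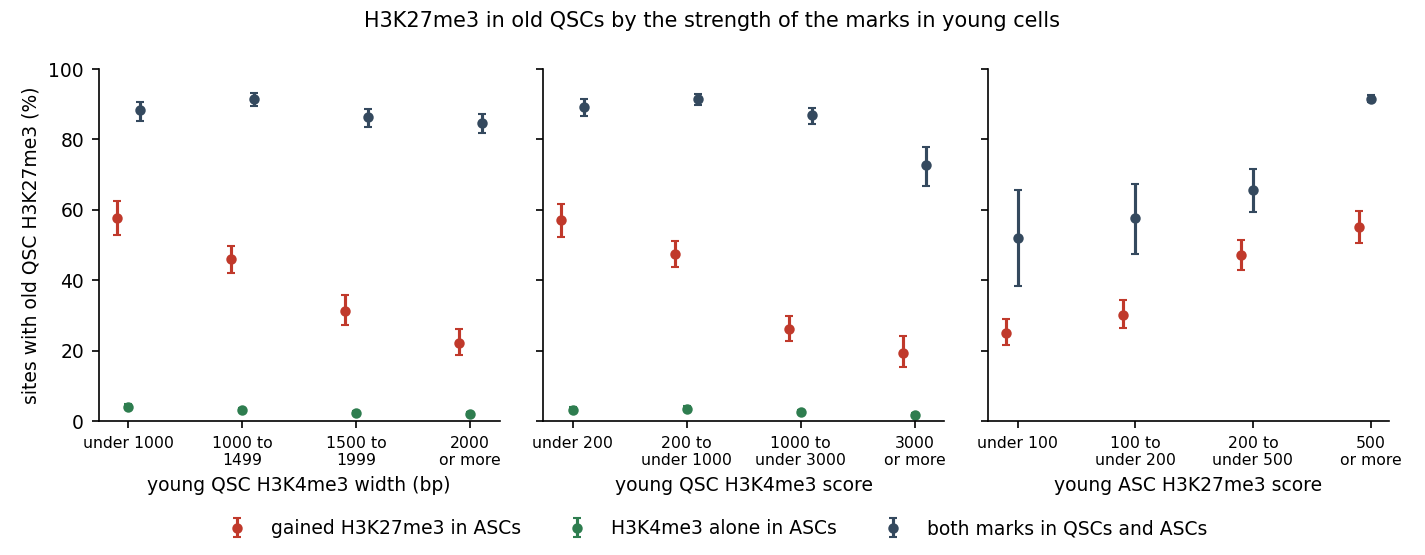
Share of sites (%) with an H3K27me3 peak in old QSCs, by H3K4me3 width (bp) and score in young QSCs and by H3K27me3 score in young ASCs, for gained, H3K4me3-alone and stable bivalent sites; bars are Wilson 95% intervals. At gained sites the share falls from 57.7% to 22.2% with H3K4me3 width and rises from 25.1% to 55.0% with ASC H3K27me3 score.

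The share varied less with the distance to H3K27me3 of young QSCs. Gained sites under 5 kb from such a peak carried old QSC H3K27me3 at 45.4% (39.2% to 51.7%), those at 5 to under 50 kb at 36.6%, those at 50 to under 500 kb at 35.0% (32.0% to 38.1%) and those at 500 kb or more at 48.4% (43.4% to 53.4%). The farthest sites stood above those at 50 to under 500 kb beyond the intervals, while the intervals of the nearest and the farthest sites overlapped. At H3K4me3-alone sites the shares lay between 2.28% and 4.81%.

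H3K36me3 was read on the sites and beside them. On the site itself, H3K36me3 of young QSCs overlapped 218 gained sites, or 11.0% (9.72% to 12.5%), where the background was 12.7%. The gained share was thus not raised over the background. That background includes sites without H3K4me3 in ASCs, which the rule excludes. Those with H3K27me3 in ASCs stood at 44.1% and those with neither mark there at 28.5%. The share of gained sites was more than the 6.20% of H3K4me3-alone sites, by 4.83 points (3.46 to 6.34), while stable bivalent sites stood at 12.4%. These peaks had a median score of 94.8 and a median width of 1194 bp, where the whole list had 83.8 and 1103 bp. With peaks of a score of at least 100 alone the share of gained sites was 3.62% and the difference 0.91 points (0.05 to 1.97). By H3K4me3 width the difference was present in each band, with 13.8%, 7.97%, 9.30% and 14.7% of gained sites from the narrowest to the widest, against 5.80%, 4.42%, 3.75% and 10.9% of H3K4me3-alone sites.

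In ASCs, H3K36me3 overlapped 105 gained sites, or 5.31% (4.41% to 6.39%), where the background was 7.29%. This did not differ detectably from the 5.22% of H3K4me3-alone sites, with a difference of 0.10 points (−0.88 to 1.23) whose sign turned under alternative settings, and it stood above the 2.55% of stable bivalent sites. At a score of at least 100 the share was 2.70%, and with equal numbers of top-scoring peaks it was 2.18%. Of the 218 gained sites with the mark in QSCs, 76 kept it in ASCs, or 34.9% (28.8% to 41.4%), against 49.0% of H3K4me3-alone sites and 15.7% of stable bivalent sites. Another 142 gained sites had it in QSCs alone, 29 in ASCs alone and 1730 in neither. Old QSC H3K27me3 was found at 26.3% (17.7% to 37.2%) of the 76 sites with H3K36me3 in both young states, at 45.8% (37.8% to 54.0%) of the 142 with it in QSCs alone and at 39.3% (37.0% to 41.6%) of the 1730 without it.

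The region beside the sites, where a transcribed gene body would carry the mark, gave a clearer contrast. A peak of H3K36me3 in young QSCs lay 1 to 10 kb beyond an edge of 424 gained sites, or 21.4% (19.7% to 23.3%), where the background was 32.2%. At H3K4me3-alone sites the share was 35.3%, a difference of −13.9 points (−15.8 to −11.9). In ASCs it was 18.5% (16.8% to 20.2%) of gained sites, where the background was 41.5%, and 50.3% of H3K4me3-alone sites, a difference of −31.9 points (−33.7 to −29.9). Stable bivalent sites stood lower still, at 16.6% in QSCs and 12.7% in ASCs. This window was set after the coverage profiles had been seen.

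The contrast in ASCs was found at every strength of H3K4me3. At young QSC scores under 200 the ASC share was 15.9% (12.7% to 19.7%) of gained and 35.8% of H3K4me3-alone sites. From 1000 to under 3000 it was 19.5% (16.5% to 23.0%) and 61.3%, and at 3000 or more 21.2% (17.0% to 26.2%) and 57.0%. Gained sites with H3K27me3 in old QSCs had ASC H3K36me3 beside them at 14.1% (11.8% to 16.7%), and those without at 21.3% (19.1% to 23.7%). From QSCs to ASCs, the share thus went from 21.4% to 18.5% at gained sites and from 35.3% to 50.3% at H3K4me3-alone sites. The ASC list held more than double the peaks of the QSC list, 42880 against 20399, so a rise between the states cannot be told apart from a deeper or larger list.

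The widest gained sites had ASC H3K27me3 over a small part of their width. They were picked by H3K4me3 width, so this was largely set by the choice. The widest, chr6:47687088-47719772, spanned 32685 bp at a score of 3100, and 7 H3K4me3 peaks of ASCs and 5 of old QSCs lay on it. Its H3K27me3 peak of ASCs was 6251 bp wide with a score of 2407 but covered 7.57% of the site, and the nearest H3K27me3 peak of young QSCs was 971 kb away. The other 4, chr7:28113689-28120099, chr11:62942639-62948889, chr4:48055298-48061397 and chr9:121667433-121673440, were 6411, 6251, 6100 and 6008 bp wide. Their ASC H3K27me3 peaks covered 12.8% to 25.0% of the site, and 3 of the 4 overlapped H3K36me3 of young QSCs. H3K27me3 of old QSCs was found at 1 of these 5 widest sites, chr4:48055298-48061397, as a peak of 583 bp with a score of 61.2.

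The sites farthest from H3K27me3 of young QSCs lay mostly on the X chromosome. The 4 there, chrX:147091507-147092153, chrX:146920143-146921671, chrX:149203259-149204928 and chrX:40781337-40782291, were 7261, 7090, 6647 and 6192 kb from the nearest such peak. Their ASC H3K27me3 peaks had scores of 55.8, 51.8, 143 and 406, the last of them above the median of 199 over all gained sites. The first and the last of them had no H3K4me3 peak in old QSCs. The fifth, chr14:3048510-3050154, lay 5574 kb away, had an ASC H3K27me3 peak of 1176 bp with a score of 434, and kept both marks in old QSCs.

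Most gained sites stood alone. With gaps of at most 50 kb, 1577 sites had no other gained site near, and the other 400 fell into 176 groups. The largest groups held 5 sites. In chr15:102772951-102822118, the 5 gained sites were among 18 H3K4me3 peaks of young QSCs, of which 2 were stable bivalent and 10 H3K4me3-alone, and 4 of the 5 carried H3K27me3 in old QSCs. In chr8:74152440-74249767 they were among 14 peaks, of which 7 were stable bivalent, and 4 of the 5 carried it. In chr11:99646266-99735436 they were among 11 peaks, of which 1 was stable bivalent and none H3K4me3-alone, 10 H3K36me3 peaks of young QSCs lay in the same region, and 1 of the 5 kept H3K4me3 in old QSCs.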

How the data were processed

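Per the labels, reads were mapped to mm9 with Bowtie. The authors deposited 1 peak list per ChIP library, called against an input library, with a position and a MACS score per peak. The peak caller's version is not given in the sources used here, and the 3 input libraries were not analysed. Positions were used as deposited. The score is on the scale of −10 times the log10 p-value and grows with read depth, which is unknown, so scores were not compared between lists. The alternative with a score of at least 100 applied the same cutoff to all lists, and its strictness may differ between them. Overlaps of at least 1 bp and distances between edges were computed in Python 3.11.15 with pandas 2.3.3 and numpy 2.4.6, tested on simulated data and checked against bedtools 2.31.1. Wilson and Newcombe 95% intervals used scipy 1.17.1, and figures matplotlib 3.10.9. Without replicates no test between cell states was made. Gene tables of another build (GRCm38) were not used, so no gene is named and no sequence shown. The members and lists were chosen with earlier results of these data known. Named regions were the 5 sites with the highest ASC H3K27me3 score (ties taken by the wider H3K27me3 peak), the 5 widest, the 5 farthest from young QSC H3K27me3 and the 3 fullest runs. As alternatives, peaks scoring under 100 were dropped, each list was reduced to equal numbers of top-scoring peaks for a mark, an overlap of 50% was required, or neighbours closer than 1 kb were joined.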

Additional observations from a re-analysis of the deposited data

How the results depend on the processing

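The gained sites were found anew under each alternative. With equal numbers of top-scoring peaks there were 1056, with a median H3K4me3 width of 1527 bp, score of 912 and ASC H3K27me3 width of 1373 bp. Of these, 7.95% overlapped H3K36me3 in QSCs and 2.18% in ASCs, and old QSCs had H3K4me3 at 97.9%, H3K27me3 at 34.2% and both at 33.3%. With scores of at least 100 the 1628 sites had a median width of 1544 bp, score of 1014 and H3K27me3 width of 1304 bp, 10.1% lay within 10 kb of young QSC H3K27me3, 3.62% and 2.70% overlapped H3K36me3, and 24.6% had H3K27me3 and 23.3% both marks in old QSCs. An overlap of 50% put 21.4% within 10 kb. Merging gave widths of 1521 and 1125 bp.

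The differences from H3K4me3-alone sites were recomputed under the same alternatives after the data were seen. That of H3K36me3 in ASCs turned to −0.76 points at scores of at least 100 and to −1.51 with equal numbers. The others kept their sign under all 4 alternatives, from 23.7 to 37.3 points for old QSC H3K27me3 and from −32.4 to −28.2 for ASC H3K36me3 beside the site. The causes were not tested. With the depth of the libraries unknown, a site without a peak is one where none was called, which does not show that the mark was absent. No paired analysis was possible because each cell state and mark had 1 library.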

Other observations

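The gained sites were spread over all autosomes and the X chromosome. Of the H3K27me3-free sites that kept H3K4me3 in ASCs, the gained share ran from 9.04% (6.87% to 11.8%) on the X chromosome, with 47 of 520 sites, to 19.5% (16.5% to 22.9%) on chromosome 14, with 113 of 580. Chromosome 14 stood out through a single stretch. In its first 10 Mb, 47 of 52 sites were gained, or 90.4% (79.4% to 95.8%), against 66 of 528 (12.5%) on the rest of the chromosome. Among the 236 windows of 10 Mb with at least 20 sites, the next highest share was 32.7%, with 18 of 55 sites from 20 to 30 Mb on chromosome 12, and the median was 11.8%. The 47 sites had a median H3K4me3 score of 268 and ASC H3K27me3 score of 311, and lay a median of 2530 kb from H3K27me3 of young QSCs. In old QSCs 46 of them kept H3K4me3 and 27 carried H3K27me3. Whether they share sequence with each other was not tested. Without them, 747 of 1930 gained sites, or 38.7% (36.6% to 40.9%), carried H3K27me3 in old QSCs. The window was chosen after its values were seen.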
